A study of Mus musculus with 24 samples.

Results

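The nuclear-encoded subunits of respiratory complexes III and IV and of ATP synthase were followed in the hypothalamus of overfed and control mice. Members were taken by gene symbol: every counted gene whose symbol starts with Uqcr, Cox4i, Cox5, Cox6, Cox7, Cox8 or Atp5, together with Cyc1, leaving out names that contain -ps. This gave 46 of the 55471 counted genes, with 9 in complex III, 19 in complex IV and 18 in ATP synthase. Hypothalamic RNA was sequenced from 24 male C57BL6/J mice on chow, 18 weeks of age and 1 library per mouse. ExpOF mice received a sucrose-supplemented liquid diet into the stomach for 14 days, raised stepwise to 150% of their energy requirement by day 9, and Control mice received sterile water at the same flow rates. On day 14 the diet was stopped and all remaining mice were given water. The 4 groups of 6 mice are ExpOF d14 and Control d14, killed at the end of overfeeding, and ExpOF d14+3 and Control d14+3, killed 3 days later on day 17. The study left out 1 Control d14 mouse for poor RNA quality, and this mouse (replicate 4) is left out here unless it is named, so Control d14 holds 5 mice.

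Complex III passes electrons from ubiquinol to cytochrome c, complex IV passes them on to oxygen, and both pump protons across the inner mitochondrial membrane. ATP synthase lets the protons flow back through a rotor in the membrane and uses the turning to make ATP in its catalytic head. Each of these machines joins subunits encoded in mitochondrial DNA (for complex III, cytochrome b alone) to a larger number encoded in the nucleus, and neurons, which spend much ATP on ion pumping, depend heavily on them. Several complex IV subunits exist as a ubiquitous and a tissue-restricted isoform. The best known are the muscle isoforms Cox6a2, Cox7a1 and Cox8b and the testis isoforms Cox6b2, Cox7b2 and Cox8c.

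Of the 46 members, 42 passed the expression filter of edgeR (9 in complex III, 16 in complex IV and 17 in ATP synthase). The other 4 were Cox8b with 127 counts over all 24 libraries, Cox8c with 3, Cox6c2, annotated as a processed pseudogene, with 173, and an additional identifier of Atp5o with 0. The tested members include Cox7a2l, counted with complex IV by its symbol alone, and Atp5s, which is not a subunit of the enzyme's core. The members lie on 18 chromosomes. Of the tested members, 12 overlap a gene on the opposite strand and 10 share over 10% of their 51-base windows, the read length, with another gene, led by Atp5o (41.2%), Atp5g2 (38.2%) and Uqcrb (25.0%). Reads of these genes could have been lost or credited elsewhere, since the sources used here do not say whether the counting used strand. Total counts per library lay between 8928182 and 34848437, and the members took 0.563% to 0.856% of them. The labels give a July and a September cohort with 3 mice per group in each (2 in September for Control d14 without the left-out mouse). They also give 2 RNA extraction rounds, replicates 1 to 3 in round 1 and 4 to 6 in round 2. RNA integrity numbers (RIN) were 9.20 ± 0.860 (SD, n = 5) in Control d14 and 9.75 ± 0.138 (SD, n = 6) in ExpOF d14. They were 8.62 ± 1.09 (SD, n = 6) in Control d14+3 and 9.43 ± 0.450 (SD, n = 6) in ExpOF d14+3. In Control d14+3 the RIN was 9.5, 9.3 and 9.9 in round 1 and 7.9, 7.2 and 7.9 in round 2. All 9 hypothalamic marker genes looked for passed the filter, and their levels moved with the groups. In ExpOF d14 against Control d14 their median log2 fold change was -0.69, with 7 lower, 5 of them at an unadjusted p under 0.05, 1 higher at that threshold, and 1 called by edgeR. Their summed level ranged from 472 to 863 CPM in Control d14, 387 to 518 CPM in ExpOF d14, 358 to 669 CPM in Control d14+3 and 295 to 469.8 CPM in ExpOF d14+3. In ExpOF d14+3 against Control d14+3 the median log2 fold change of the markers was -0.15, with 7 lower and 0 called. Of the 9 markers, 3 were lower at an unadjusted p under 0.05 there (4.2% of all genes). In Control d14+3 against Control d14 the median was -0.46, with all 9 lower and 1 called. There 5 markers had an unadjusted p under 0.05 (12.7% of all genes). The part of the markers in the results on the subunits was not tested. In bulk tissue, fewer cells of a type and less RNA per cell cannot be told apart.

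Levels between genes were compared as CPM (counts scaled to library size) per kilobase of gene length (CPM per kb), averaged over the 23 libraries. The gene length is the one deposited with the counts, and the order of genes depends on it. Atp5a1 and Atp5b, the alpha and beta chains of the catalytic head, were the most abundant at 340.1 ± 32.1 and 295 ± 34.2 CPM per kb (SD, n = 23). Cox4i1, the ubiquitous isoform of the largest nuclear subunit of complex IV, followed at 273 ± 53.9 CPM per kb. In complex III, the hinge protein Uqcrh was highest at 131 ± 25.5 CPM per kb. Core protein Uqcrc2 was the steadiest of the 42 members, at 81.5 ± 2.81 CPM per kb, a coefficient of variation of 3.44%. The catalytic subunits Atp5a1 and Atp5b varied by 9.45% and 11.6%. Most variable were Cox6a2 (62.7%), Cox7b2 (46.0%), Cox7c (31.7%) and Atp5k (31.7%). At the lower end stood the restricted isoforms Cox4i2 with 1.92 ± 0.473 CPM per kb and Cox7b2 with 0.485 ± 0.223 CPM per kb, the latter from 1 to 13 counts per library.

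The 3 complexes moved together from library to library. The mean log2 CPM of the complex III subunits was 6.50, 7.11, 6.66, 7.02 and 7.05 in Control d14 replicates 1, 2, 3, 5 and 6. In ExpOF d14 the lowest, median and highest values were 6.54, 6.62 and 6.71. Control d14 thus held 3 libraries above every overfed mouse and 1 below all of them, and the overfed mice lay close together. On d14+3 complex III stood at 6.65, 6.77 and 7.15 (lowest, median, highest) in Control and at 6.47, 6.58 and 6.98 in ExpOF. The high libraries were Control d14+3 replicates 1 and 3 and ExpOF d14+3 replicate 5, and the same libraries were highest for complex IV and for ATP synthase. Complex IV had group means of 5.10 ± 0.33 in Control d14, 4.76 ± 0.12 in ExpOF d14, 5.18 ± 0.28 in Control d14+3 and 4.84 ± 0.27 in ExpOF d14+3 (mean log2 CPM, SD). ATP synthase had 6.90 ± 0.27, 6.65 ± 0.06, 6.88 ± 0.18 and 6.66 ± 0.17 in the same order. Groups overlapped in all 3 complexes on both days. Control d14+3 replicate 3 held the highest value of the 23 libraries for 24 of the 42 members, and ExpOF d14+3 replicates 6 and 3 held the lowest for 13 and 12.

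**Figure D1:**
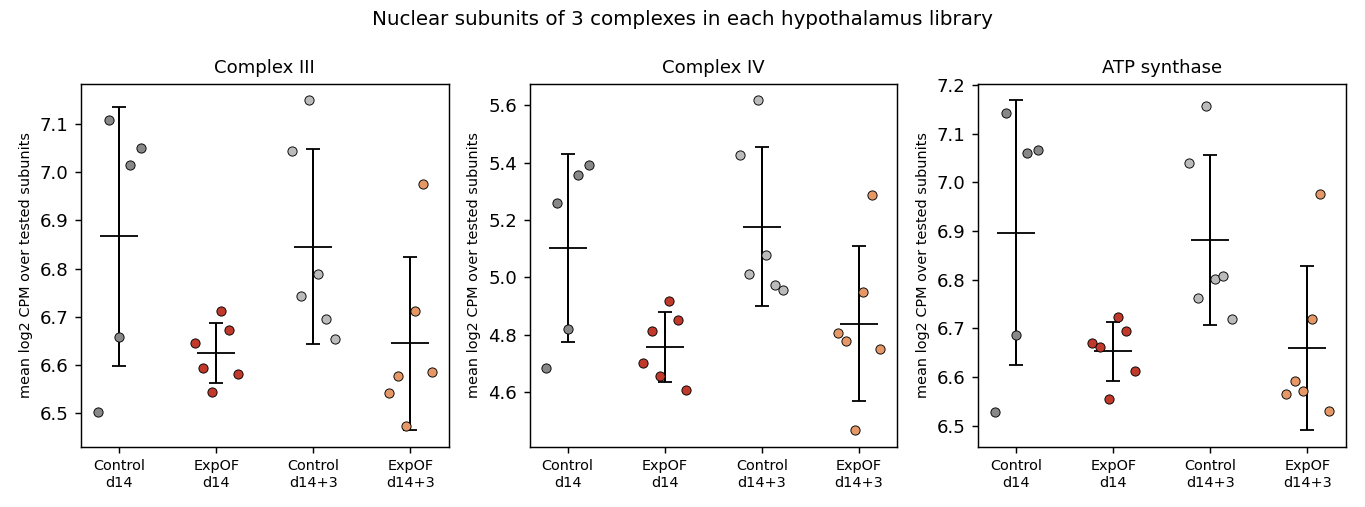
Mean log2 CPM over the tested nuclear subunits of complex III, complex IV and ATP synthase (y axes) in each of the 23 libraries by group (x axes); points are mice, horizontal lines the group means and bars the SD. The same 3 Control d14 libraries, 2 Control d14+3 libraries and 1 ExpOF d14+3 library stand highest in all 3 panels, and ExpOF d14 is the tightest group (complex III 6.54 to 6.71).

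On d14, subunits of all 3 complexes were lower in ExpOF than in Control mice by a modest amount, without any gene passing the adjusted threshold. The log2 fold change was below 0 for 41 of the 42 members (53.4% of all genes), with a median of -0.33 against -0.021 over all 18992 genes tested. With edgeR's quasi-likelihood test, 0 members had an adjusted p-value under 0.05 (0.00527% of all genes did) and the smallest adjusted p among members was 0.135. Without adjustment 30 members passed p under 0.05, all lower in ExpOF, or 71.4% of those tested, beside 26.7% of all genes (13.6% lower and 13.1% higher). The DESeq2 Wald test called 0 (0.874% of all genes) and gave 29 at the unadjusted threshold (27.5% of all genes). By complex, the median log2 fold change and the count at the unadjusted threshold were -0.24 with 6 of 9 in complex III, -0.38 with 13 of 16 in complex IV and -0.31 with 11 of 17 in ATP synthase. No member separated the groups completely, while 0.958% of all genes lay lower and 1.54% higher in ExpOF d14 without overlap. The d14 counts depended on Control d14 replicate 1, the control mouse with the lowest members: without it edgeR called 29 members, all lower, among 4220 genes called of 19206 tested. Without Control d14 replicate 2, 5 or 6, 17, 13 and 16 members were under the unadjusted threshold (14.4%, 15.1% and 18.3% of all genes). The count was 3 in the September cohort alone (4.4% of all genes), where 3 ExpOF mice stand against 2 Control mice, and 11 with each library's trend with gene length removed (19.6%). With a score for likeness to the left-out library as a covariate, described further on, it was 1 (5.43%). The medians then lay above 0, at 0.055 in complex III, 0.023 in complex IV and 0.030 in ATP synthase. That score went along with diet on d14, so this fit cannot tell the 2 apart.

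In complex III on d14 the smallest p-value was that of Uqcrq. Uqcrq, a small subunit near the ubiquinone site (chr11:53427922-53430827 of mm10), measured 51.7, 90.2, 59.5, 80.4 and 88.5 CPM in the Control d14 mice. In ExpOF d14 it ranged from 48.5 to 57.4 CPM with a median of 51.0. 4 of the 5 control mice lay above all 6 overfed mice, and the log2 fold change was -0.51 ± 0.18 (SE, edgeR adjusted p = 0.135, exact permutation test p = 0.0130). Uqcr10 (-0.36 ± 0.13) and Uqcrh (-0.31 ± 0.14) came next by unadjusted p-value. Of the subunits with redox centres, Cyc1, the cytochrome c1, had a log2 fold change of -0.16 ± 0.10 and Uqcrfs1, the Rieske iron-sulfur protein, one of -0.18 ± 0.10 (edgeR adjusted p = 0.259 and 0.233). Cyc1 stood at 156 ± 19.0 CPM in Control d14 (n = 5) and 139 ± 5.82 CPM in ExpOF d14 (n = 6). Uqcrc2 was nearly level, with 208 ± 7.12 CPM in Control d14 and 204 ± 6.46 CPM in ExpOF d14 (log2 fold change -0.03 ± 0.04). It shares 17.6% of its 51-base windows with Pdzd9, which overlaps it on the opposite strand.

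In complex IV on d14 the 3 smallest p-values belonged to Cox4i2, Cox7a2l and Cox6b2. Cox4i2, the oxygen-sensitive minor isoform of subunit 4 (chr2:152754173-152765034), measured 1.49, 1.66, 1.86, 1.56 and 2.07 CPM in Control d14. In ExpOF d14 it ranged from 0.815 to 1.69 CPM with a median of 1.04. Every overfed mouse but 1 lay below all control mice (log2 fold change -0.62 ± 0.18, edgeR adjusted p = 0.135, exact permutation test p = 0.0216), on 15 to 72 counts per library. Cox7a2l differed by -0.30 ± 0.10 and Cox6b2 by -0.56 ± 0.20. Among abundant subunits, Cox6a1 (chr5:115345642-115348981) measured 93.0, 177, 121, 182 and 171 CPM in Control d14 and 85.1, 104 and 119.7 CPM (lowest, median, highest) in ExpOF d14. Only Control d14 replicate 1 fell inside the range of the overfed mice, and the log2 fold change was -0.54 ± 0.21 (edgeR adjusted p = 0.141, exact permutation test p = 0.0325). Cox4i1 differed by -0.34 ± 0.14. Cox7b2 was the only tested member with a higher mean in ExpOF d14 (0.51 ± 0.42, edgeR adjusted p = 0.426), at 0.144 to 0.459 CPM against 0.116 to 0.233 CPM.

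In ATP synthase on d14 the leading genes were Atp5h, Atp5j2 and Atp5g3, a subunit of the peripheral stalk, a small membrane subunit and the main gene for the c subunit of the rotor ring. Atp5h (chr11:115415689-115419917) measured 116, 186, 135, 195 and 188 CPM in Control d14 and 114, 123 and 133 CPM (lowest, median, highest) in ExpOF d14. All control mice but replicate 1 were above all overfed mice (log2 fold change -0.42 ± 0.13, edgeR adjusted p = 0.135, exact permutation test p = 0.0303). Atp5j2 differed by -0.37 ± 0.13 and Atp5g3 by -0.31 ± 0.11. The catalytic chains showed smaller differences, -0.14 ± 0.08 for Atp5a1 and -0.16 ± 0.09 for Atp5b (edgeR adjusted p = 0.221 and 0.217). Atp5b averaged 1282 ± 161 CPM in Control d14 (n = 5) and 1144 ± 57.3 CPM in ExpOF d14 (n = 6). Atp5s and Atp5l were closest to level at -0.01 ± 0.07 and -0.03 ± 0.12.

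**Figure D2:**
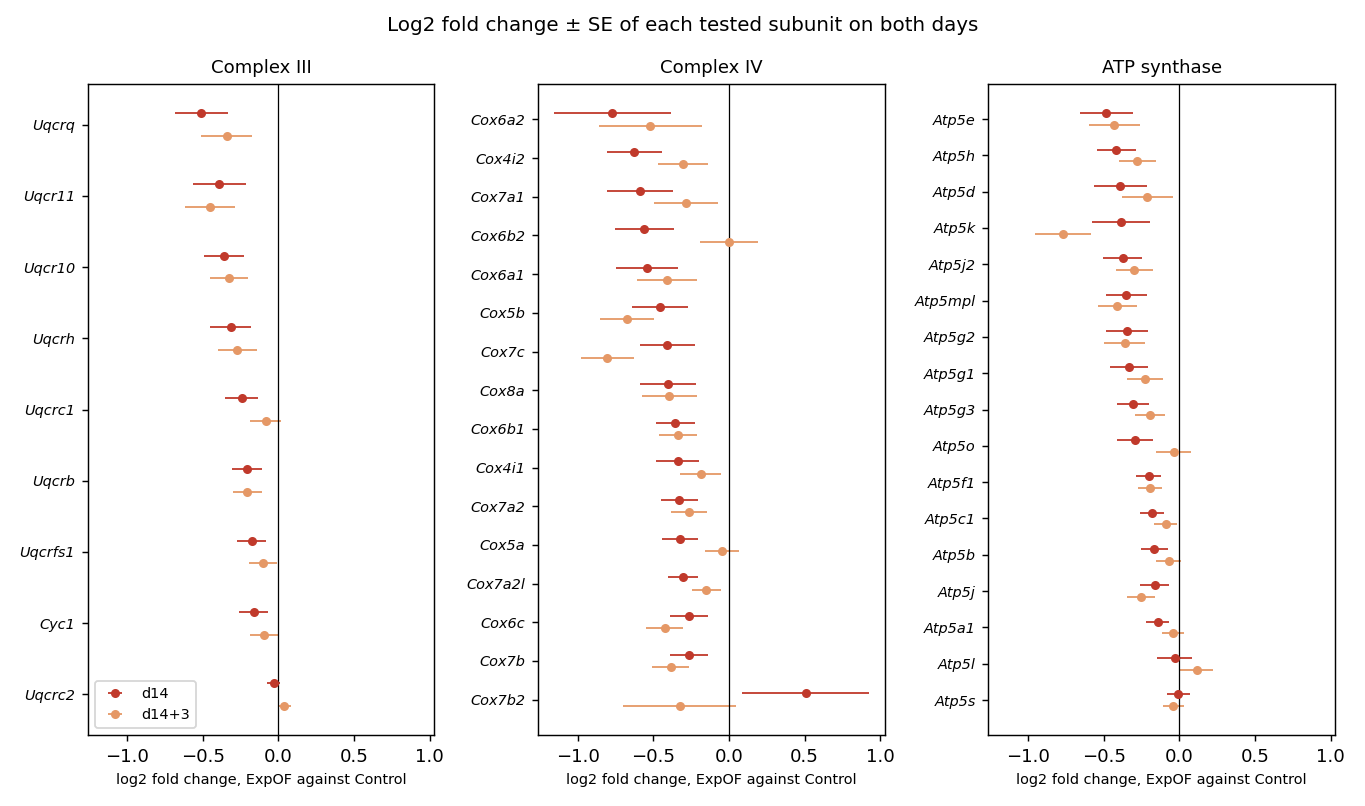
Log2 fold change of ExpOF against Control with its SE (x axes) for each tested subunit (y axes, ordered by the d14 value) on d14 and on d14+3, by complex. On d14 41 of 42 points lie below 0, and on d14+3 40 of 42 do, with Cox7c, Atp5k and Cox5b farthest below 0 on d14+3 (-0.80, -0.77 and -0.67).

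On d14+3, 3 days into recovery, the subunits were again lower in ExpOF mice, and 3 small ones stood out. The log2 fold change was below 0 for 40 of 42 members (47.9% of all genes), with a median of -0.27 against 0.007 over all genes. Medians were -0.21 in complex III, -0.33 in complex IV and -0.21 in ATP synthase. In edgeR's quasi-likelihood test 0 members had an adjusted p-value under 0.05 (0% of all genes), and 20 had an unadjusted one under 0.05, all lower. This is 47.6% of the members beside 7.11% of all genes (4.2% lower and 2.91% higher), with 4 of 9 members in complex III, 8 of 16 in complex IV and 8 of 17 in ATP synthase. The DESeq2 Wald test called 3 members, Cox7c, Atp5k and Cox5b, beside 0.29% of all genes. It gave 21 at the unadjusted threshold (7.47% of all genes). No member separated the groups completely, as did 0.3% of all genes with ExpOF lower and 0.121% with ExpOF higher. Without Control d14+3 replicate 3 or replicate 1, or without ExpOF d14+3 replicate 2, the count at the unadjusted threshold was 10, 11 and 13. The shares of all genes were 4.51%, 5.06% and 6.2% in the same order. In the September cohort alone, and with all 24 libraries, it was 2 (2.96% and 2.48% of all genes).

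Cox7c, a short transmembrane subunit of complex IV (chr13:86044816-86046904), measured 34.1, 42.9 and 58.7 CPM (lowest, median, highest) in Control d14+3. In ExpOF d14+3 it measured 16.4, 25.1 and 36.0 CPM. All overfed mice except replicate 5 lay below every control mouse. The log2 fold change was -0.80 ± 0.18 (edgeR adjusted p = 0.227, exact permutation test p = 0.00649). It was called by DESeq2 (adjusted p = 0.00968) and with RIN as a covariate in edgeR (adjusted p = 0.0385). Leaving out single libraries moved the log2 fold change between -0.93 and -0.71. In the July cohort it was -0.97 and in the September cohort -0.67. Cox7c shares 259 of its 1177 51-base windows with 3 other genes, so its level is uncertain to that extent.

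Atp5k, the e subunit of ATP synthase, which helps hold its dimers together (chr5:108433244-108434448), measured 54.3, 66.3 and 86.4 CPM in Control d14+3. In ExpOF d14+3 it measured 27.0, 40.7 and 56.9 CPM. Again all overfed mice except replicate 5 lay below every control mouse (log2 fold change -0.77 ± 0.19, edgeR adjusted p = 0.256, DESeq2 adjusted p = 0.0225, exact permutation test p = 0.00433). The smallest p that 6 against 6 mice can give in this test is 0.00216. Cox5b, a zinc-binding subunit of complex IV (chr1:36691449-36693386), measured 93.1, 111 and 199.7 CPM in Control d14+3 and 53.0, 78.3 and 108 CPM in ExpOF d14+3. Here too 5 of the 6 overfed mice were below every control mouse (log2 fold change -0.67 ± 0.18, edgeR adjusted p = 0.299, DESeq2 adjusted p = 0.0479, exact permutation test p = 0.00649). Its value differed between cohorts, at -1.10 in July and -0.32 in September, and was -0.49 without Control d14+3 replicate 3. Atp5k stood at -1.02 in July and -0.57 in September.

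**Figure D3:**
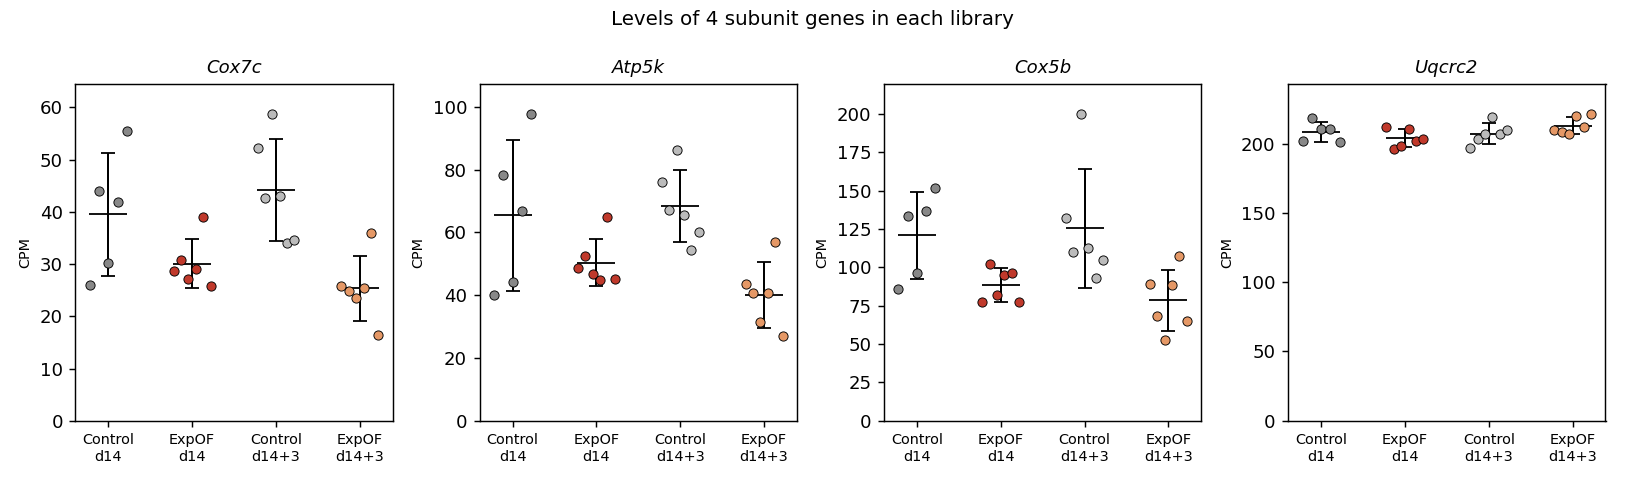
CPM (y axes, from 0) of Cox7c, Atp5k, Cox5b and Uqcrc2 in each mouse by group (x axes); horizontal lines are group means and bars the SD. On d14+3, 5 of 6 ExpOF mice lie below every Control mouse for Cox7c, Atp5k and Cox5b, whereas Uqcrc2 lies between 196 and 221 CPM in all 4 groups.

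The remaining subunits with the 3 smallest p-values of their complex on d14+3 were as follows. Cox6c, a small subunit of complex IV, measured 148, 165 and 213 CPM in Control d14+3 and 106, 128 and 165 CPM in ExpOF d14+3 (log2 fold change -0.42 ± 0.12, edgeR adjusted p = 0.344, exact permutation test p = 0.00866). Atp5mpl, a small proteolipid bound to ATP synthase, differed by -0.41 ± 0.13. Atp5j, a peripheral stalk subunit that overlaps Gabpa on the opposite strand, differed by -0.25 ± 0.09. In complex III, Uqcr11 (-0.45 ± 0.17), Uqcr10 (-0.33 ± 0.13) and Uqcrb (-0.21 ± 0.09) led, with edgeR adjusted p-values of 0.546, 0.583 and 0.688. The core subunits were near 0: Cyc1 at -0.10 ± 0.09, Uqcrfs1 at -0.10 ± 0.09, Atp5a1 at -0.04 ± 0.07 and Atp5b at -0.07 ± 0.08. Uqcrc2 (0.04 ± 0.04) and Atp5l, the g subunit (0.11 ± 0.11), had a higher mean in ExpOF d14+3, with edgeR adjusted p-values of 0.799 and 0.794. Cox6b2, lower on d14, was level on d14+3 at -0.00087 ± 0.19.

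Because Cox7c, Cox5b and Atp5k led the recovery comparison, and Cox6a1 was a leading abundant subunit on d14, their 250 bases before the RefSeq start are shown 5′ to 3′ (GRCm38.p6). Nuclear respiratory factor 1 (NRF1), the ETS factor GABPA and YY1 are transcription factors known to act on genes of the respiratory chain. Capitals mark the NRF1 motif, which is GCGCA and GCGC with any 1 base between them, and the ETS motif CCGGAAG, each on either strand, and the YY1 motif GCCATNTT was also searched.
Cox7c (chr13:86046796-86047045, minus strand): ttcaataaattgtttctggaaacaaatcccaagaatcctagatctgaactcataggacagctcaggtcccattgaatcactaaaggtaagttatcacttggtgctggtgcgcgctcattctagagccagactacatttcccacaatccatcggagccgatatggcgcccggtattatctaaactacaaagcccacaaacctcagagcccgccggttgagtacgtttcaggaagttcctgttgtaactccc
Cox5b (chr1:36691237-36691486, plus strand): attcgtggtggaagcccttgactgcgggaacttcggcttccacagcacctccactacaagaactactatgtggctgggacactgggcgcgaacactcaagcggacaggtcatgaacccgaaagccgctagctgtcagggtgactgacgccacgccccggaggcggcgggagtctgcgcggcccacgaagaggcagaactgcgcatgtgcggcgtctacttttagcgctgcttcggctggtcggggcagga
Cox6a1 (chr5:115348959-115349208, minus strand): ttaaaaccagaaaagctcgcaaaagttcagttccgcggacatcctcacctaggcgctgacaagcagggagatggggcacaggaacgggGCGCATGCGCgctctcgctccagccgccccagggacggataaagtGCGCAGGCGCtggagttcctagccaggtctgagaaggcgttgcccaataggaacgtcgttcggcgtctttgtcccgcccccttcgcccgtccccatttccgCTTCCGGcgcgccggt
Atp5k (chr5:108434400-108434649, minus strand): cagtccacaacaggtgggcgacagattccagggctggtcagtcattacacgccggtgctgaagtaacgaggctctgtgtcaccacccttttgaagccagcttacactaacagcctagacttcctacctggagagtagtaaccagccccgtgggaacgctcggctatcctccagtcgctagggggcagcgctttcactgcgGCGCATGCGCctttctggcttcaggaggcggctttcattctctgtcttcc
The sequence of Cox6a1 holds 2 matches to the NRF1 motif and 1 to the ETS motif, and that of Atp5k holds 1 NRF1 match, with an ETS match after the start that is not shown. Cox7c and Cox5b hold none of the 3 motifs as written. Of the 42 tested members, 32 matched a RefSeq promoter entry of 300 bases (250 before and 50 after the start). The NRF1 motif was found for 8 of them (25.0%), beside 5.19% of the 27025 genes with such an entry. The ETS motif was found for 10 (31.2%, beside 9.93%) and the YY1 motif for 5 (15.6%, beside 6.96%). The 27025 genes were taken whether or not they passed the expression filter, unlike the members. No share over the tested genes was made, so this is not a comparison of like with like. A match is a description of letters and not a mapped binding site.

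The overfeeding effect was compared between days with an interaction contrast. In edgeR 0 members had an adjusted p-value under 0.05 (0% of all genes) and 0 an unadjusted one (4.42% of all genes), with a smallest adjusted p of 0.903. The DESeq2 Wald test called 0 (0% of all genes) and gave 1 at the unadjusted threshold (4.53% of all genes). The direction depended on the processing, and 12 of 42 differences were below 0 here. With the score for the left-out library's profile, which went along with diet on d14, 30 were. In that fit 10 members passed the unadjusted threshold, all below 0 (5.8% of all genes). With all 24 libraries 4 were below 0 and 3 passed that threshold, all above 0 (5.54% of all genes). In both fits 0 were called. Both d14 and d14+3 values were below 0 for 39 of the 42 members. At the unadjusted threshold 17 members passed on both days, 13 on d14 alone, 3 on d14+3 alone and 9 on neither day. For all genes no joint count over the days was made, so these counts have no background. Taken singly, 53.4% (d14) and 47.9% (d14+3) of all genes were below 0, and 26.7% and 7.11% passed that threshold. The difference was 0.56 ± 0.27 for Cox6b2, -0.40 ± 0.25 for Cox7c and -0.38 ± 0.27 for Atp5k (d14+3 minus d14, log2). A p-value that misses the threshold does not show that the days are alike.

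Between days within a diet, the median log2 fold change of the members was -0.024 for Control d14+3 against Control d14 and 0.039 for ExpOF d14+3 against ExpOF d14. In edgeR 0 members were called in either comparison (1.15% and 0% of all genes). At the unadjusted threshold 1 member passed in each (12.7% and 7.79% of all genes), and it was Cox6a2 both times. The DESeq2 Wald test also called 0 (2.8% and 1.06% of all genes), with 1 at the unadjusted threshold in each (13.1% and 7.98%). With all 24 libraries, 20 members passed the unadjusted threshold between Control days, all lower on d14+3 (19.2% of all genes). With the profile score, 13 passed it between ExpOF days, 12 of them lower on d14+3 (11.8% of all genes).

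Cox6a2, the heart and skeletal muscle isoform of subunit 6a (chr7:128205435-128206387, opposite to Itgad), measured 1.91, 2.94, 2.05, 5.86 and 6.81 CPM in Control d14. In ExpOF d14 it measured 1.67, 2.24 and 3.25 CPM (lowest, median, highest). On d14+3 it measured 3.97, 7.21 and 12.9 CPM in Control and 1.78, 5.10 and 9.63 CPM in ExpOF. The later mice were higher, with overlap, by a log2 fold change of 0.94 ± 0.36 in Control (edgeR adjusted p = 0.249) and 1.19 ± 0.37 in ExpOF (edgeR adjusted p = 0.232). As a share of the pair with Cox6a1 per kb, Cox6a2 rested at 2.53% in Control d14 and 2.28% in ExpOF d14, and at 4.62% and 4.29% on d14+3. The log2 ratio differed between days by 0.97 in Control (exact permutation test p = 0.00866) and 0.89 in ExpOF (exact permutation test p = 0.0130), and both had an adjusted p of 0.121 over the 28 ratio comparisons made. Within a day the ratio differed between diets by -0.07 on d14 and -0.15 on d14+3 (exact permutation test p = 0.766 and 0.641). Summed striated muscle markers, 4 of 5 of which passed the filter, ranged from 7.88 to 8.96 CPM in Control d14 and 5.51 to 6.87 CPM in ExpOF d14. On d14+3 they ranged from 6.56 to 10.1 CPM in Control and 5.49 to 15.7 CPM in ExpOF. Between days their median log2 fold change was -0.016 in Control (2 of 4 higher on d14+3) and 0.55 in ExpOF (4 of 4 higher). Their part in the differences of Cox6a2 was not tested.

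**Figure D4:**
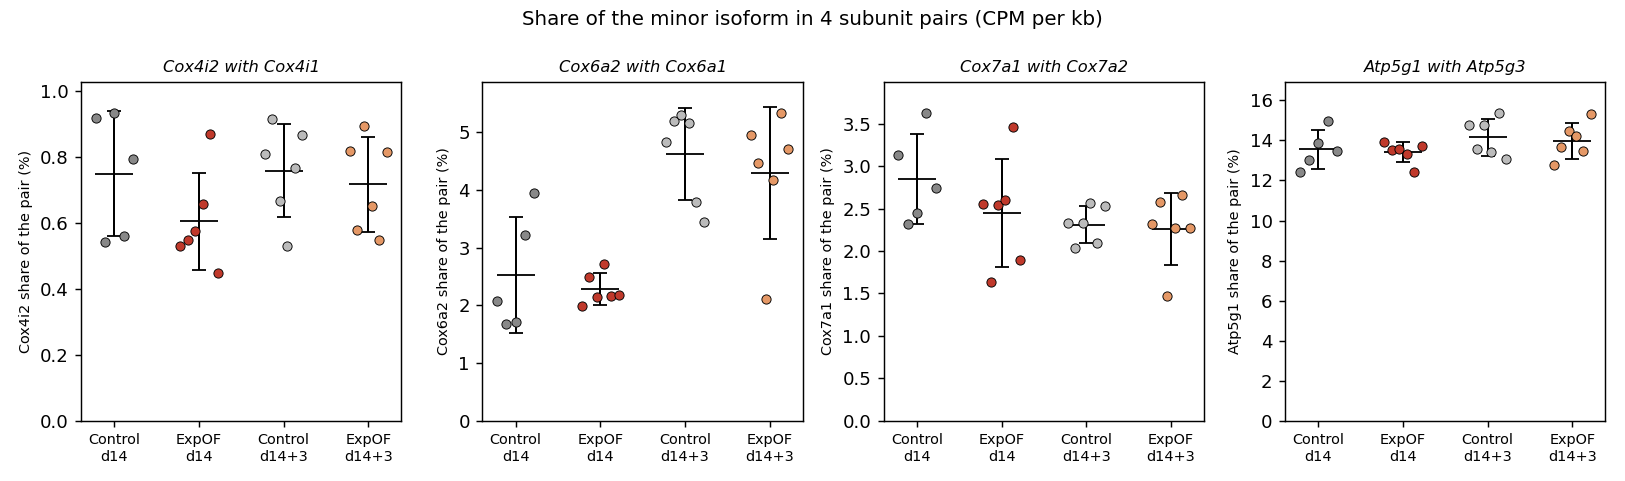
Share of the minor isoform in 4 subunit pairs, in percent of the summed CPM per kb of the pair (y axes, from 0), for each mouse by group (x axes); lines are means and bars the SD. The Cox6a2 share is higher on d14+3 (means 4.62% and 4.29%) than on d14 (2.53% and 2.28%), while Atp5g1 lies between 12.4% and 15.4% in all groups.

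In the other isoform pairs no ratio comparison had an adjusted p below 0.05. Cox4i2 made up 0.749%, 0.604%, 0.758% and 0.717% of its pair with Cox4i1 in Control d14, ExpOF d14, Control d14+3 and ExpOF d14+3. Cox7a1, the muscle isoform, made up 2.85%, 2.45%, 2.31% and 2.26% of its pair with Cox7a2, the ubiquitous one. Cox6b2 against Cox6b1 gave the smallest p-value between diets, with a log2 ratio higher by 0.36 in ExpOF d14+3 (exact permutation test p = 0.0130, adjusted p = 0.121). The c subunit of ATP synthase is encoded by 3 genes with the same mature protein. Per kb, Atp5g1 made up 13.4% to 14.2% of its pair with Atp5g3 in the group means, and Atp5g2 7.11% to 7.92%. These shares depend on the deposited gene lengths, 4912 bases for Atp5g1, 1675 for Atp5g2 and 2181 for Atp5g3. Before scaling to length, Atp5g1 averaged 96.2 CPM and Atp5g3 271 CPM in Control d14. Atp5g2 shares 38.2% of its 51-base windows with other genes. On d14 the 3 genes differed by -0.33 ± 0.12, -0.34 ± 0.14 and -0.31 ± 0.11 (Atp5g1, Atp5g2, Atp5g3), and on d14+3 by -0.22 ± 0.12, -0.36 ± 0.13 and -0.19 ± 0.10. In complex IV, Cox8a, the form expressed in brain, differed by -0.40 ± 0.19 on d14 and -0.39 ± 0.18 on d14+3, and Cox7a2 by -0.33 ± 0.12 and -0.26 ± 0.12.

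Partners of the 3 complexes were read from lists of the same kind. None of the genes in these lists passed the adjusted threshold on either day. Beside them stand the 26.7% and 7.11% of all genes under the unadjusted threshold on d14 and d14+3 (13.6% and 4.2% lower, 13.1% and 2.91% higher). Complex III assembly factors had 3 of 6 genes lower at that threshold on each day. Their smallest p-value belonged to Uqcc3, at -0.40 ± 0.12 on d14 and -0.39 ± 0.12 on d14+3. Of 21 tested complex IV assembly factors, 6 (28.6%) were lower at the unadjusted threshold on d14, beside 13.6% of all genes. On d14+3 1 (4.76%) was, beside 4.2% of all genes, and 0 were higher at it on either day. The smallest p-values of this list were those of Coa3 (-0.34 ± 0.11) and Cox19 (-0.22 ± 0.077) on d14 and Pet100 (-0.45 ± 0.13) on d14+3. In the list for ATP synthase assembly 4 of 4 genes were lower on both days (53.4% and 47.9% of all genes). At the unadjusted threshold 1 (25%) passed on d14, Atpif1 at -0.35 ± 0.12 (edgeR adjusted p = 0.137). On d14+3 0 passed, and Atpaf1 had the smallest p-value (-0.13 ± 0.067). Cycs, the soluble electron carrier between complexes III and IV, was at -0.081 on d14 and at -0.32 ± 0.094 on d14+3 (edgeR adjusted p = 0.384). Of 13 nuclear regulators of mitochondrial genes, 6 were higher and 1 lower in ExpOF d14 at the unadjusted threshold. Yy1 (0.18 ± 0.058) and Gabpa (0.31 ± 0.12) had the smallest p-values there, with edgeR adjusted p-values of 0.135 and 0.139. On d14+3 0 of the 13 passed that threshold. Of the 6 mitochondrially encoded subunits of the 3 complexes, mt-Co1 and mt-Cytb passed the expression filter, at 0.20 ± 0.079 and 0.13 ± 0.063 on d14 and at 0.10 ± 0.075 and 0.004 ± 0.060 on d14+3. Why the others did not pass was not tested, and it does not show that they are not expressed.

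Differences of the same size were present outside the 3 complexes. The 38 tested nuclear subunits of complex I had medians of -0.32 on d14 and -0.21 on d14+3, with 29 (76.3%) and 16 (42.1%) at the unadjusted threshold, all lower, beside 26.7% and 7.11% of all genes. The 81 tested cytosolic ribosomal protein genes had -0.35 and -0.42, with 70 (86.4%) and 65 (80.2%) lower at that threshold. Complex II had -0.16 and -0.14 over 4 genes. A list of 10 abundant mitochondrial proteins outside the respiratory chain (such as Vdac1 and citrate synthase, Cs) had -0.066 and -0.098, with 0 and 2 at the unadjusted threshold.

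Fold changes were also read by gene length. Among the 4751 shortest tested genes, up to 2193 bases, the median log2 fold change was -0.19 on d14 and -0.061 on d14+3, and among the 4748 longest it was 0.12 and 0.057. Of the 42 members, 32 were among the shortest, with medians of -0.35 and -0.29. With each library's trend with gene length removed, the medians on d14 were -0.15 in complex III, -0.23 in complex IV and -0.19 in ATP synthase, and 11 members were under the unadjusted threshold (19.6% of all genes). On d14+3 they were -0.16, -0.28 and -0.19, with 17 members (7.1% of all genes). The left-out library, Control d14 replicate 4, had the members at 1.88% of its counts. Each of the other libraries was given a score for its likeness to that library's profile over genes outside the respiratory chain, as that library's deviation from the other Control d14 libraries, and the high libraries named above scored highest, 0.0874 to 0.146. On d14 the scores ran from -0.0796 to -0.0154 in ExpOF and from -0.0762 to 0.135 in Control. The score thus went along with diet on d14, and a fit with it cannot tell the 2 apart. On d14+3 the scores ran from -0.069 to 0.088 in ExpOF and from -0.050 to 0.146 in Control. How far score and diet can be told apart on d14+3 was not tested. With the score as a covariate the d14 medians were 0.055, 0.023 and 0.030 in complex III, complex IV and ATP synthase. In that fit 1 member was under the unadjusted threshold (5.43% of all genes). The d14+3 medians were -0.080, -0.12 and -0.092, with 16 members under it, 14 lower and 2 higher (8.02% of all genes). Cox7c, Atp5k and Cox5b then stood at -0.59, -0.57 and -0.44 on d14+3. Within the July cohort the d14 medians were -0.31, -0.41 and -0.37 in complex III, complex IV and ATP synthase, and within September, on 3 ExpOF and 2 Control mice, -0.16, -0.32 and -0.21. The July medians on d14+3 were -0.37, -0.51 and -0.33, those of September -0.068, -0.20 and -0.10.

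**Figure D5:**
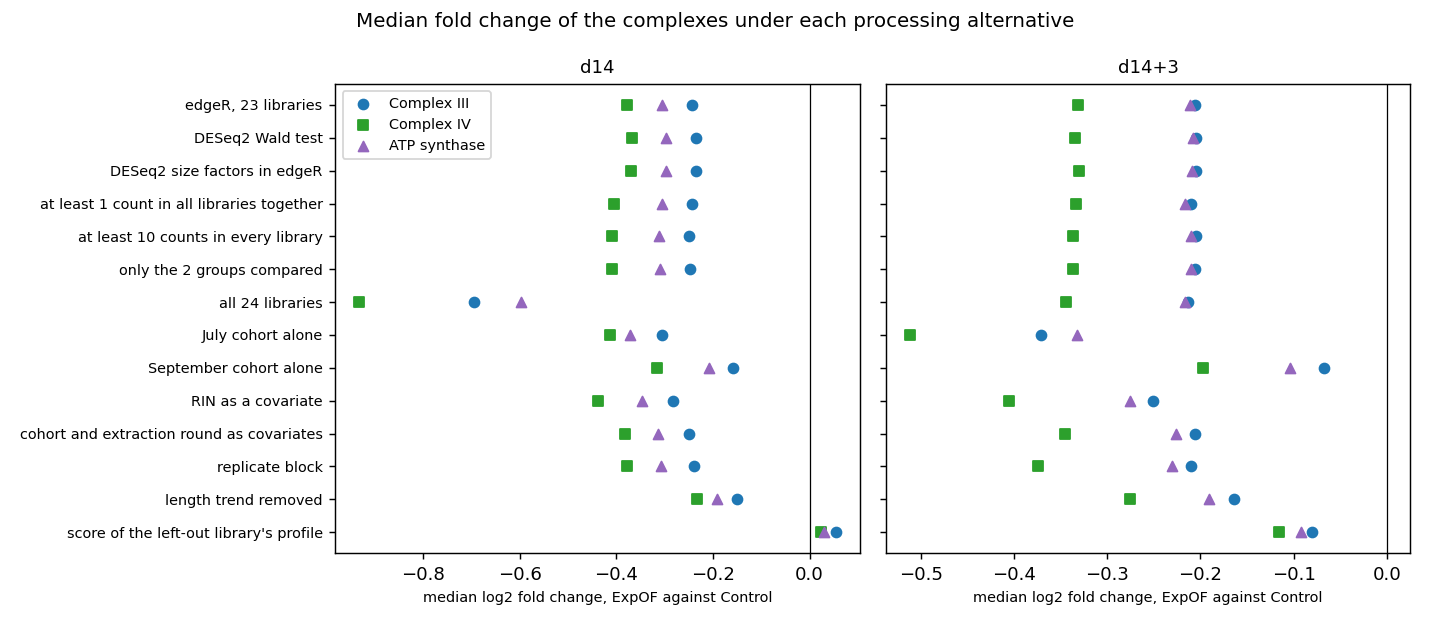
Median log2 fold change of ExpOF against Control over the tested subunits of each complex (x axes) under each way of processing (y axis), on d14 and on d14+3. On d14 the medians run from -0.93 with all 24 libraries to 0.055 with the score for the left-out library's profile, which went along with diet on d14. On d14+3 they stay below 0 in every row, from -0.51 to -0.068.

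Markers of cell types were read beside these values. Summed neuron markers (5 of 5 passed the filter) ranged from 3362 to 3999.8 CPM in Control d14 and from 3988 to 4132 CPM in ExpOF d14, and on d14+3 from 3809 to 4321 CPM and from 3941 to 4398 CPM. Astrocyte markers (5 of 5) ranged from 1962 to 2444 CPM in Control d14 and from 2349 to 2469 CPM in ExpOF d14. Oligodendrocyte markers (5 of 5) ranged from 4713 to 6475 CPM and from 4884 to 5818 CPM on d14, and from 5742 to 7149.6 CPM and from 5069 to 6526 CPM on d14+3. Ependymal and choroid plexus markers (5 of 5) reached 3041 CPM in 1 Control d14 library and 1306 CPM in 1 ExpOF d14+3 library, with medians between 55.3 and 65.9 CPM in the 4 groups. Meningeal fibroblast markers were lower in ExpOF for 5 of 5 genes on both days, with medians of -0.41 and -0.24 (log2), 2 and 0 of them at the unadjusted threshold. Their sums ranged from 43.6 to 78.5 CPM in Control d14, 36.7 to 64.8 CPM in ExpOF d14, 37.1 to 142 CPM in Control d14+3 and 38.2 to 126 CPM in ExpOF d14+3. Erythrocyte markers had a median of 0.077 on d14 with 1 of 5 lower, and of -0.39 on d14+3 with 5 of 5 lower, 1 at the unadjusted threshold. Endothelial markers had medians of -0.12 and 0.014, with 3 and 2 of 5 lower, and microglia markers -0.0021 and 0.059. No marker of these lists was at 0 in all libraries. Their part in the differences of the subunits was not tested.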

How the data were processed

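Hypothalamic poly-A RNA libraries (stranded kit, 51-bp paired-end reads) were deposited as 1 table of raw counts per gene. The authors made these counts with STAR on mm10 and featureCounts 1.6.4. Whether the counting used strand is not given in the sources used here. Samples were grouped by diet and day from the labels. The Control d14 library left out by the study was identified as replicate 4, since the mean expression values in the study's own results table are matched within 0.1% for 100% of 3542 genes only without it. Its RIN in the labels is 9.8.

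The fits were made in edgeR 4.0.16 (R 4.3.3), with TMM normalisation, filterByExpr (min.count 10, min.total.count 15) and robust quasi-likelihood tests in 1 fit of the 4 groups (23 libraries). P-values were adjusted by Benjamini-Hochberg over 18992 genes, with a threshold of 0.05. Single genes were also compared with two-sided exact permutation tests on log2 CPM (prior count 2). DESeq2 1.42.0, other normalisation, filters, covariates, cohorts and left-out libraries were alternatives. Fits were tested on simulated data. Total counts per library ranged from 8928182 to 34848437, and p-values measure the spread between mice. Within each group no libraries were duplicates of each other (lowest chi-square per degree of freedom 2.78 over 60 pairs). Pairs of libraries from different groups were not compared. The members and lists were chosen with earlier results of these data known.

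Genes named are those with the 3 smallest p-values of each complex on each day, those with the sign opposite to most members, the isoform families, and Cyc1, Uqcrfs1, Atp5a1 and Atp5b as core subunits. From the lists of assembly factors and nuclear regulators, genes with the smallest p-values are named. Atp5s, Cycs, mt-Co1 and mt-Cytb, which this rule does not reach, were named after their values were seen.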

Additional observations from a re-analysis of the deposited data

Results flagged for a closer look

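Among 140 groups of members' values tested for a library far from its group, 8 were flagged, where chance flags about 1 in 20. ExpOF d14+3 replicate 5 stood above the rest of its group for Uqcrq (80.4 CPM, next 54.3), Atp5g3 (294.7 CPM, next 233) and Atp5g2 (17.4 CPM, next 13.7). Control d14+3 replicate 3 stood above its group for Uqcrb (74.3 CPM, next 61.1) and Cox5b (199.7 CPM, next 132). ExpOF d14 replicate 5 was highest in its group for Cox7c (39.1 CPM, next 30.7) and Cox6c (158.8 CPM, next 139.5). ExpOF d14 replicate 4 was highest for Atp5b (1257 CPM, next 1142).

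The library left out of the fits, Control d14 replicate 4, had 1.88% of its counts on the members, beside 0.563% to 0.856% in the other 23 libraries. Its levels were 733 CPM for Cox6a1, 614 CPM for Cox5b, 557 CPM for Atp5k and 119 CPM for Cox7c, whereas Uqcrc2 was at 95.1 CPM.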

How the results depend on the processing

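Of 378 alternative values for the counts and medians, 355 stayed the same, 19 moved and 4 reversed, and of 1549 for single genes, 1481 stayed the same, 24 passed the adjusted threshold that the reported value missed and 44 reversed. The cause of these changes was not tested. With all 24 libraries the d14 medians were -0.86 over all members, -0.69 in complex III, -0.93 in complex IV and -0.60 in ATP synthase. In that fit 2 members were under the unadjusted threshold on d14+3 (2.48% of all genes). With the score for the left-out library's profile, which went along with diet on d14, the d14 medians were 0.028, 0.055, 0.023 and 0.030 in the same order. There 1 member was under the unadjusted threshold on d14 (5.43% of all genes), and 1 (Cox6a2) was called between Control days (5.65% of all genes). The same score gave 10 members under the unadjusted threshold for the difference between days (5.8% of all genes) and 13 between ExpOF days (11.8%). The reported fit gave 0 and 1 (4.42% and 7.79% of all genes). The count under the unadjusted threshold on d14 was 3 in September (3 ExpOF against 2 Control mice, 4.4% of all genes). It was 11 on d14 with the length trend removed (19.6% of all genes), and 2 on d14+3 in September (2.96%). On d14+3 DESeq2 called 3 members (0.29% of all genes) and RIN as a covariate 1 (0.137%). Leaving out single libraries gave 0 to 29 called and 13 to 38 under the unadjusted threshold on d14. On d14+3 it gave 10 to 26 under that threshold. The counts over all genes moved as well. The 29 and the 38 came without Control d14 replicate 1, where 22% of all genes were called and 38.4% were under the unadjusted threshold. The 13 came without Control d14 replicate 5 (15.1% of all genes). The 10 came without Control d14+3 replicate 3 (4.51% of all genes), and the 26 without ExpOF d14+3 replicate 5 (2373 of 18964 genes).

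Single genes reversed mostly with the profile score. On d14 their log2 fold changes were then 0.048 for Atp5a1, 0.066 for Atp5b, 0.032 for Atp5g1, 0.074 for Atp5j, 0.037 for Atp5k, 0.11 for Atp5l, 0.082 for Cox4i1, 0.035 for Cox6a1, 0.095 for Cox6a2, 0.064 for Cox6c, 0.020 for Cox7a2, 0.0043 for Cox7c, 0.072 for Cox8a, 0.084 for Cyc1, 0.0072 for Uqcr10, 0.10 for Uqcr11, 0.074 for Uqcrfs1 and 0.069 for Uqcrh. On d14+3 they were 0.053 for Atp5a1, 0.044 for Atp5b, 0.017 for Cox4i1, 0.21 for Cox6b2, 0.028 for Cyc1 and 0.023 for Uqcrfs1. Atp5l was at 0.012 with RIN as a covariate on d14, between -0.10 and 0.058 there without single libraries, and at -0.0048 in July on d14+3. Cox7b2 was at 0.45 in September on d14+3, and Uqcrc2 on d14 at 0.11 with all 24 libraries and 0.045 with the length trend removed. Cox6b2 on d14+3, which lay next to 0, was at 0.0003026 with DESeq2, 0.0003448 with DESeq2 size factors, 0.0010 with at least 10 counts in every library, 0.24 in September, 0.040 with RIN, 0.045 with the length trend removed, and from -0.095 to 0.12 without single libraries.

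Same-numbered mice did not deviate together (correlations -0.153 to -0.024 on d14 and -0.210 to 0.223 on d14+3), so the numbers were not read as pairs. With the replicate block 0 members were called on either day (0.00527% and 0% of all genes). There 23 and 17 were under the unadjusted threshold (20.9% and 5.72% of all genes), and Cox6b2 on d14+3 was at 0.00558. With cohort and extraction round as covariates 0 were also called on either day (0.00527% and 0%). In that fit 28 and 20 were under the unadjusted threshold (26.2% and 6.77%). Depth limits the low isoforms most, Cox7b2 with 1 to 13 counts per library.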
